A study of Bos taurus with 2 samples.

Results

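Leukocyte lineage marker genes were examined in muzzle RNA of 2 HanWoo cows, 1 with a light and 1 with a dark muzzle. HanWoo are native Korean cattle, and both cows were females of 30 months. The sample of the light-muzzle cow is labelled as Yellow nose tissue and that of the dark-muzzle cow as Black nose tissue. Per the methods, the front part of the muzzle was removed at slaughter and frozen, and 1 representative cow was taken for each colour. Of 58 listed genes, 42 had at least 1 probe on the array whose accession the RefSeq table of the bovine ARS-UCD2.0 assembly pairs with that symbol. They are 42 of 9647 named genes and were represented by 84 of 43639 probes. The other 16 genes (PTPRC, CD52, CD6, ZAP70, CD22, CD79B, PAX5, PRDM1, MRC1, ITGAX, C1QC, MARCO, SPI1, CD207, CPA3 and MS4A2) were not analysed here.

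Skin and mucosa hold resident leukocytes of several lineages. T cells recognise antigen through the T cell receptor and its CD3 chains, with CD4 or CD8 as co-receptor, and cytotoxic T cells and natural killer (NK) cells kill targets with perforin and granzymes. B cells carry surface immunoglobulin, signal through CD79 chains and mature into plasma cells, which secrete antibody. Glands of mucosal surfaces are a known seat of plasma cells, whose polymeric immunoglobulin is carried through the gland epithelium. Macrophages take up debris and make complement C1q, dendritic cells present antigen with costimulatory molecules, and mast cells store histamine and proteases.

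Each RNA was read alone on a 1-colour Agilent array, and both arrays lay on the same slide. A level is the log2 of the background-subtracted spot intensity minus the log2 of the 75th percentile of its array, an intensity of 1144 for the light muzzle and 1137 for the dark. A ratio is the level of the dark-muzzle cow minus that of the light-muzzle cow on the log2 scale, so that 1 stands for 2-fold higher and -1 for 2-fold lower there. Paired levels or intensities are given with the light-muzzle value first and the dark-muzzle value second. The ratio of a gene is the mean over its measured probes, those well above background on both arrays. If a probe was well above background on 1 array only, its difference is a lower bound, taken against the higher of the detection limit of the other array (-5.78 or -5.81) and the dim level. With 1 array per group no test could be made and no SD between cows exists, so that every ratio compares 2 animals with no replicate check, and the precision is limited by how few arrays there are. In bulk tissue, fewer cells of a type and less RNA per cell cannot be told apart. Technical error of 2 kinds could be read from the arrays. The signal error that the scanner software attaches to each spot gave an error of 0.20 to 0.40 on the log2 ratio of a member probe. The SD of the ratio between probes of the same gene had a median of 0.27 over the 13 members with several measured probes and of 0.17 over 5363 named genes.

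Most leukocyte markers had similar levels in both cows, and the plasma cell markers POU2AF1 and MZB1 were the exceptions of largest size among genes measured in both cows. POU2AF1, a coactivator of octamer-binding transcription factors in B-lineage cells, was 11.2-fold lower with the dark muzzle, and MZB1, which assists antibody assembly in the endoplasmic reticulum, was 2.48-fold lower. LCP1, an actin-bundling protein of leukocytes, and CD27, a costimulatory receptor of lymphocytes, were also at least 2-fold lower. No other member reached 2-fold in either direction. Of the 3 measured plasma cell markers, CD38 alone was higher with the dark muzzle, with a ratio of 0.46. Markers of T cells, cytotoxic and NK cells, B cells, macrophages and dendritic cells lay on both sides of 0.

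A ratio or lower bound was obtained for 41 of the 42 genes. Of these, 0 were higher by at least 2-fold with the dark muzzle, where 9.86% of 8914 named genes were, and 4 (9.76%) were lower by at least 2-fold, where 6.47% of named genes were. The lower share was thus near that of all genes, and under normexp background correction only POU2AF1 and MZB1, 2 members, were lower by at least 2-fold, where 4.16% of named genes were. At 1.5-fold, 4 members were higher and 5 lower, against 19.8% and 13.6% of named genes. At 3-fold, 0 members were higher and 1 was lower, against 4.69% and 3.03%. The ratios of 32 members lay within 1.5-fold, as did those of 66.5% of named genes. The median over the members was -0.055 and the quartiles were -0.33 and 0.29, while the median over all named genes was 0.065 and their quartiles were -0.29 and 0.46. Ratios were above 0 for 19 members and below 0 for 22.

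**Figure D1:**
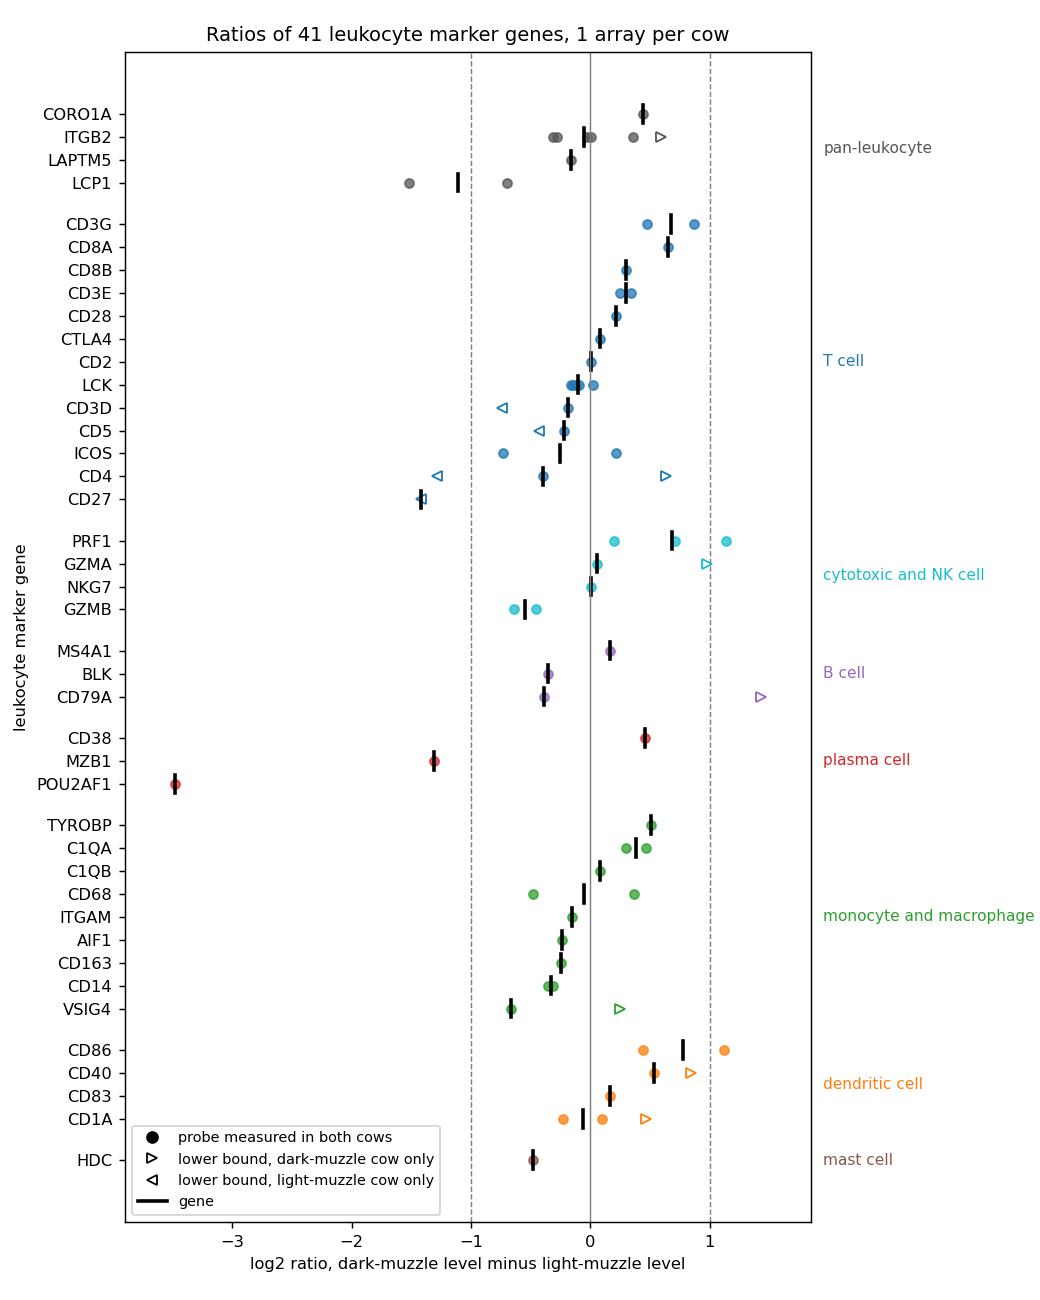
Log2 ratio (x axis, dark muzzle over light muzzle) of the 41 leukocyte marker genes with a ratio, in 8 lineage groups. Filled points are probes measured in both cows, open triangles are lower bounds of probes above background in 1 cow, black bars are genes, and dashed lines mark 2-fold. POU2AF1 lies at -3.48 and the 37 genes other than POU2AF1, MZB1, LCP1 and CD27 lie between the dashed lines.

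The 84 probes differed in how well they read their gene. Of them, 60 were well above background on both arrays, 7 on the dark-muzzle array only, 4 on the light-muzzle array only, and 13 on neither. All probes were measured on both arrays for 22 of the genes, and 16 of the genes had a single probe. The plot of probe levels shows the 60 measured member probes spread along the diagonal over most of the range of the arrays.

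**Figure D2:**
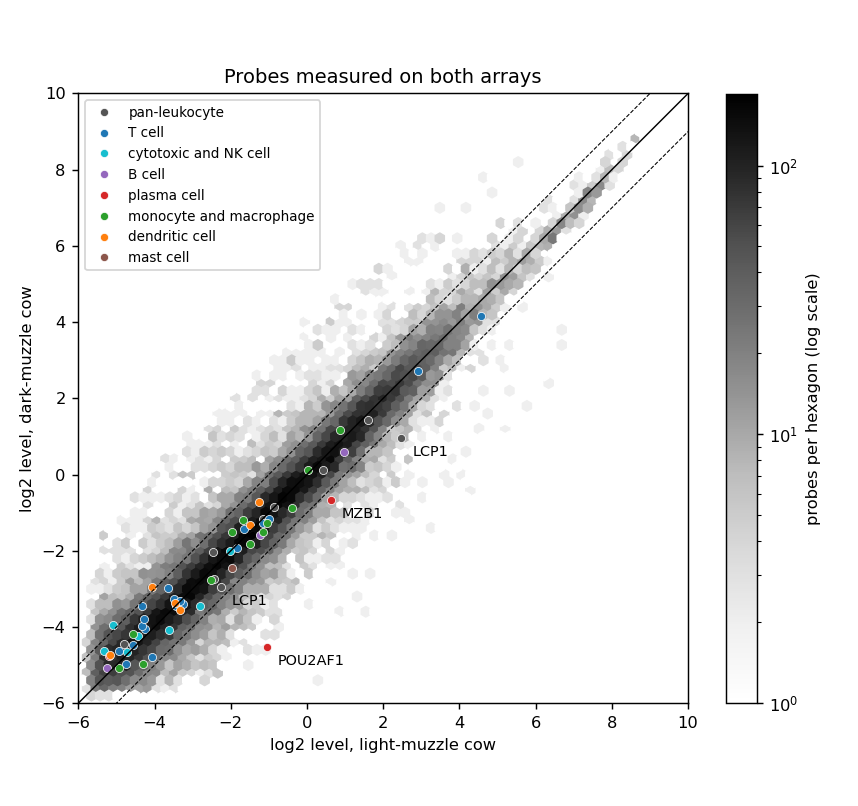
Log2 level in the light-muzzle cow (x axis) against the dark-muzzle cow (y axis) for all probes measured on both arrays (grey hexagons, number of probes on a log scale) and for the 60 measured probes of leukocyte markers (coloured by lineage). The solid line marks equal levels and dashed lines 2-fold, and the POU2AF1 probe, at -1.05 and -4.53, is the member probe farthest from the diagonal.

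Among markers shared by leukocytes, 4 of 6 listed genes were measured, and their median ratio was -0.11. ITGB2, the beta chain of the leukocyte integrins, had mean levels of -1.77 and -1.82. Its ratio was -0.054 over 5 probes, which ranged from -0.31 to 0.35, and a further probe, above background with the dark muzzle alone, had a bound of 0.59. LAPTM5, a lysosomal membrane protein of blood cells, had levels of 1.60 and 1.44 and a ratio of -0.17. CORO1A, a coronin that binds actin in leukocytes, had levels of -2.48 and -2.04 and a ratio of 0.44. These 3 genes differed by less than 1.5-fold, and not in the same direction.

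LCP1 stood apart from them. Its brighter probe had intensities of 6359.7 and 2210.5, a ratio of -1.52, and its dimmer probe had intensities of 239.8 and 146.5, a ratio of -0.70. Both probes were lower in the dark-muzzle cow, 1 of them by less than 2-fold, and the mean ratio was -1.11 with an SD of 0.58 between probes. Under background correction by normexp the mean ratio was -0.94, short of 2-fold.

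Among T cell markers, 13 of 15 listed genes had a ratio or bound, with a median of 0.0062, 7 above and 6 below 0. The measured probes for chains of the CD3 complex did not move alike. CD3E, a signalling chain, had a ratio of 0.29, with probes at 0.25 and 0.34. CD3G had levels of -4.30 and -3.63 and a ratio of 0.67, with probes at 0.47 and 0.87. A further CD3G probe was above background in neither cow. CD3D had levels of 2.91 and 2.72 and a ratio of -0.19, from a probe with intensities of 8566 and 7481. Its other probe was far dimmer, with intensities of 34.0 and 18.0. That probe was well above background with the light muzzle alone, with a bound of -0.74. Whether both probes read CD3D was not tested. The measured CD3E and CD3G probes were thus higher and the CD3D probes lower in the dark-muzzle cow.

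The co-receptors also went both ways. CD8A and CD8B, which form the co-receptor of cytotoxic T cells, had ratios of 0.65 and 0.30, from levels of -3.64 and -2.98 for CD8A and of -4.92 and -4.62 for CD8B. A further probe of each was above background in neither cow. CD4, the co-receptor of helper T cells, had 1 of its 4 probes measured in both cows, with intensities of 27122 and 20447 and a ratio of -0.40. Another was above background with the light muzzle alone (bound -1.29), another with the dark muzzle alone (bound 0.63), and the last in neither cow. The 4 probes thus gave no common direction for CD4.

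The remaining T cell genes except CD27 had ratios between -0.26 and 0.21. LCK, the kinase that starts signalling at the T cell receptor, was the best covered, with 5 probes between -0.16 and 0.021 and a mean ratio of -0.099. CD2, an adhesion receptor, had levels of -3.45 and -3.44 and a ratio of 0.0062, and CD5, an inhibitory receptor, had a ratio of -0.22 and a second probe with a bound of -0.43. The costimulatory receptor CD28 had a ratio of 0.21. CTLA4, which opposes CD28, had a ratio of 0.079, and ICOS, a costimulatory receptor, had one of -0.26, from probes at -0.73 and 0.22.

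CD27 was at least 2.67-fold lower with the dark muzzle, where it was not well above background. Its single probe was dim, with levels of -4.39 and -6.06 and a bound of -1.42. Under normexp background correction it was -0.42, and CD27 has no ratio if only probes measured in both cows are used.

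Genes of cytotoxic and NK cells had a median ratio of 0.030 over 4 genes. PRF1, the pore-forming perforin, had 3 probes, all higher in the dark-muzzle cow, at 0.20, 0.71 and 1.14, and a mean ratio of 0.68. All were dim, with intensities between 28.3 and 52.7 for the light muzzle and between 45.9 and 73.0 for the dark. The granzymes, proteases that enter target cells, differed from each other. GZMB had levels of -3.22 and -3.77 and a ratio of -0.55, with probes at -0.64 and -0.45. GZMA had a ratio of 0.053, and a second probe above background with the dark muzzle alone, with a bound of 0.98. NKG7, a granule membrane protein, had levels of -2.03 and -2.02 and a ratio of 0.0081. KLRD1, an NK cell receptor, had a probe well above background in neither cow.

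Among B cell markers, 3 of 6 listed genes were measured, with a median of -0.35. CD79A, the signalling chain of the B cell receptor, had intensities of 2255 and 1708 on its brighter probe, a ratio of -0.39. Its other probe was well above background with the dark muzzle alone, with intensities of 15.7 and 55.7 and a bound of 1.43, so the probes of CD79A disagreed in direction. BLK, a kinase of B cells, had levels of -1.23 and -1.58 and a ratio of -0.35. MS4A1, which encodes CD20, was close to the detection limit, with levels of -5.25 and -5.08 and a ratio of 0.17. The median of the B cell group lay above 0 once dim probes entered the mean, at 0.22 without a filter and at 0.17 with levels raised to the detection limit.

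The plasma cell group had the lowest median, -1.31, over 3 of 4 listed genes, 2 of which were lower by at least 2-fold. POU2AF1 had intensities of 553.1 and 49.2. Its level fell by 3.48 on the log2 scale, from -1.05 to -4.53, with a signal error of 0.25. MZB1 had intensities of 1774 and 711.8 and levels of 0.63 and -0.68, a ratio of -1.31 with a signal error of 0.20. Each rests on a single probe, and the spread between cows is unknown. Under normexp background correction, which lifts dim levels, POU2AF1 had a ratio of -2.31 and MZB1 one of -1.22. CD38, an ectoenzyme of plasma cells that many other cells carry, went the other way. Its measured probe had intensities of 30.9 and 42.2, a ratio of 0.46 with a signal error of 0.38, and its other probes were above background in neither cow.

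Further genes of antibody secretion, from a list that holds none of the members, were looked at beside this group. That list was chosen with earlier results of these data known, so it is no independent check of the plasma cell markers. Of 11 listed genes, 6 were measured, with a median ratio of -1.22, against 0.065 for all named genes. Of the 6, 3 were at least 2-fold lower and 0 at least 2-fold higher, against 6.47% and 9.86% of named genes. JCHAIN, the chain that joins immunoglobulin A and M into polymers, had intensities of 42795 and 4814 on its first probe and of 45167 and 8751 on its second. The ratios were -3.14 and -2.36, with a mean of -2.75. SEC11C, a subunit of the signal peptidase, had a ratio of -1.65, and XBP1, a transcription factor of the secretory pathway, had one of -1.54 over 3 probes between -1.75 and -1.35. FKBP11 (-0.91) and DERL3 (-0.73), proteins of the endoplasmic reticulum, were lower by less than 2-fold. SDC1, a surface proteoglycan of plasma cells and of keratinocytes, had a ratio of 0.33. XBP1, SEC11C, FKBP11 and DERL3 are also made by gland cells and other secretory cells. JCHAIN, MZB1 and POU2AF1 are known chiefly from B-lineage cells. Which cells of the muzzle made the RNA of these genes was not tested.

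**Figure D3:**
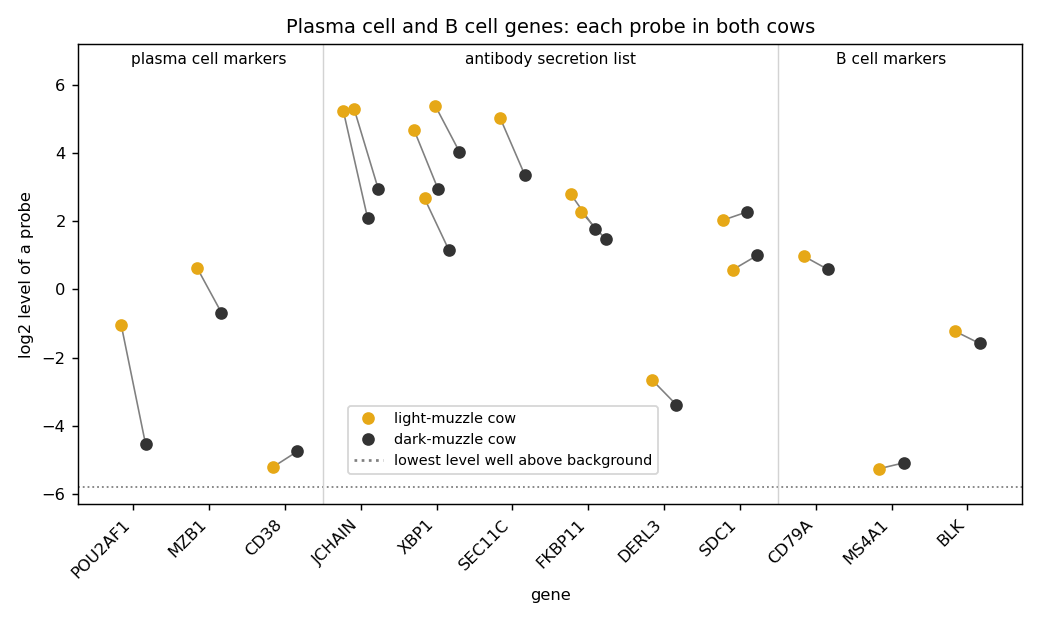
Log2 level (y axis) of each probe measured in both cows for plasma cell markers, the antibody secretion list and B cell markers (x axis), with light-muzzle and dark-muzzle values of a probe joined by a line. The dotted line is the lowest level well above background; all probes of POU2AF1, MZB1, JCHAIN, XBP1 and SEC11C drop by more than 2-fold, while CD38, SDC1 and MS4A1 are slightly higher in the dark-muzzle cow.

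Markers of other cell types in the tissue moved on the same arrays. The counts below stand beside 9.86% of named genes higher and 6.47% lower by at least 2-fold. Of 11 serous gland genes with a ratio, 7 were lower and 1 was higher by at least 2-fold with the dark muzzle, with a median of -2.81 and a range of -6.18 to 1.29. Among them, PIGR, the receptor that carries polymeric immunoglobulin across gland epithelium, had levels of 4.77 and 1.47 and a ratio of -3.29. PIGR was picked after its value was seen, and 3 of the 11 gland genes had ratios above 0. All 14 measured skeletal muscle genes were higher by at least 2-fold, with a median of 3.18 and a range of 2.24 to 3.56. Keratinocyte genes were measured in both cows for 11 of 11 genes with a probe. Of these, 4 were higher and 0 lower by at least 2-fold, with a median of 0.35 and a range of -0.59 to 1.75. Melanocyte genes were higher by at least 2-fold for 4 of 6, with a median of 1.48, and fibroblast genes for 0 of 10, with a median of -0.39 and none lower by 2-fold. The part of the gland, muscle and other tissue differences in the ratios of the plasma cell genes was not tested.

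Among markers of monocytes and macrophages, 9 of 14 listed genes were measured, 0 reached 2-fold, and the median ratio was -0.15. The complement C1q chains were slightly higher in the dark-muzzle cow. C1QA had levels of -0.54 and -0.16 and a ratio of 0.38, with probes at 0.30 and 0.47, and C1QB had levels of 0.033 and 0.11 and a ratio of 0.080. TYROBP, an adaptor of activating receptors, had the highest ratio of the group, 0.51, from levels of -1.69 and -1.18. In contrast, the scavenger receptor CD163 (-0.25), the calcium-binding protein AIF1 (-0.24) and the integrin chain ITGAM (-0.15) were slightly lower.

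CD14, a receptor for bacterial lipopolysaccharide, had levels of -1.33 and -1.66 and a ratio of -0.33, with probes at -0.35 and -0.31. The probes of CD68, a lysosomal protein, disagreed, with ratios of -0.48 and 0.37. VSIG4, a complement receptor of tissue macrophages, had the lowest ratio of the group, -0.67 from levels of -4.30 and -4.97, but its other probe was above background with the dark muzzle alone, with a bound of 0.25. Thus the gene means of the 9 measured members of this group differed by no more than 1.59-fold.

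Dendritic cell markers had the highest median of the 8 groups, 0.35, over 4 of 5 listed genes, none of which reached 2-fold. CD86, a costimulatory ligand, had the highest ratio of all members, 0.78, from levels of -4.63 and -3.85. Its measured probes had ratios of 1.12 and 0.44, so only 1 of them passed 2-fold. CD40, a receptor through which T cells activate antigen-presenting cells, had levels of -1.26 and -0.73 and a ratio of 0.53, with a bound of 0.84 on a second probe. CD83, a marker of mature dendritic cells, had a ratio of 0.17. CD1A, a lipid antigen-presenting molecule, had measured probes at -0.23 and 0.10, a mean ratio of -0.063, and another probe, above background with the dark muzzle alone, gave a bound of 0.47. Its probes carry different RefSeq accessions under the same symbol, so they may not all read the same transcript.

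Of the mast cell markers only HDC, the enzyme that makes histamine, was measured. Its levels were -1.96 and -2.44, a ratio of -0.48. Of further mast cell and basophil genes, 5 had a ratio or bound, 1 was at least 2-fold higher, 1 was at least 2-fold lower, and the median was 0.12. Of all named genes, 9.86% were higher and 6.47% lower by at least 2-fold. TPSB2, a tryptase of mast cell granules, had measured probes at 0.73 and 1.58, a mean ratio of 1.16, and a dim probe with a bound of 0.20. SLC18A2, which loads monoamines such as histamine into vesicles, had one of -1.42. The receptor KIT, shared by mast cells and melanocytes, had a ratio of -0.07. These genes showed no common direction.

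Genes that work beside the markers were taken from further lists. Their counts past 2-fold stand beside 9.86% of named genes higher and 6.47% lower. For signalling at the T cell receptor, 9 genes had a ratio or bound, 0 were at least 2-fold higher, 1 was at least 2-fold lower, and the median was -0.088. The lower gene was RASGRP1, an activator of RAS, whose single probe was dim and above background with the light muzzle alone. Its intensities were 62.8 and 11.6 and its bound was -1.62. LAT had a mean ratio of -0.48, but its probes disagreed, with ratios of -1.59, -0.42 and 0.58. The receptor zeta chain CD247 had a ratio of -0.09. Genes used to mark bovine gamma delta T cells gave ratios of -0.31 for CD163L1, -0.22 for WC1.3 and -0.35 for BLK. The measured WC1.3 probes disagreed, with ratios of 0.58, 0.23 and -1.47, so its mean lies below 0 through 1 probe. CD163L1 and WC1.3 belong to the WC1 family of similar receptors, whose probes may share targets, and BLK is also a B cell marker.

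For signalling at the B cell receptor, 5 genes were measured, all with ratios below 0, with a median of -0.56. LYN, a kinase of B cells and myeloid cells, had 3 probes between -1.22 and -1.13 and a mean ratio of -1.19. BTK, a kinase downstream of it, had levels of -2.27 and -3.44 and a ratio of -1.17. SYK (-0.56), CD81 (-0.26) and the adaptor BLNK (-0.16) were lower by less than 2-fold. LYN, BTK and SYK act in myeloid cells too, and CD81 is made by most cells.

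Of 17 measured genes of myeloid signalling and function, 1 (5.88%) was at least 2-fold higher and 2 (11.8%) were at least 2-fold lower. The shares of all named genes were 9.86% and 6.47%, and the median of the 17 genes was -0.25. TREM2, a lipid receptor of macrophages, had a ratio of -1.25 and NCF4, a subunit of the phagocyte oxidase, one of -1.14. LYVE1, a hyaluronan receptor of tissue macrophages and of lymphatic vessels, had levels of -3.73 and -1.13 and a ratio of 2.60. It also stands in the endothelium list, whose 10 measured genes all had ratios above 0, 4 of them by at least 2-fold, with a median of 0.89 and a range of 0.26 to 2.60. CSF1R, the growth factor receptor of macrophages, had a ratio of -0.25.

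**Figure D4:**
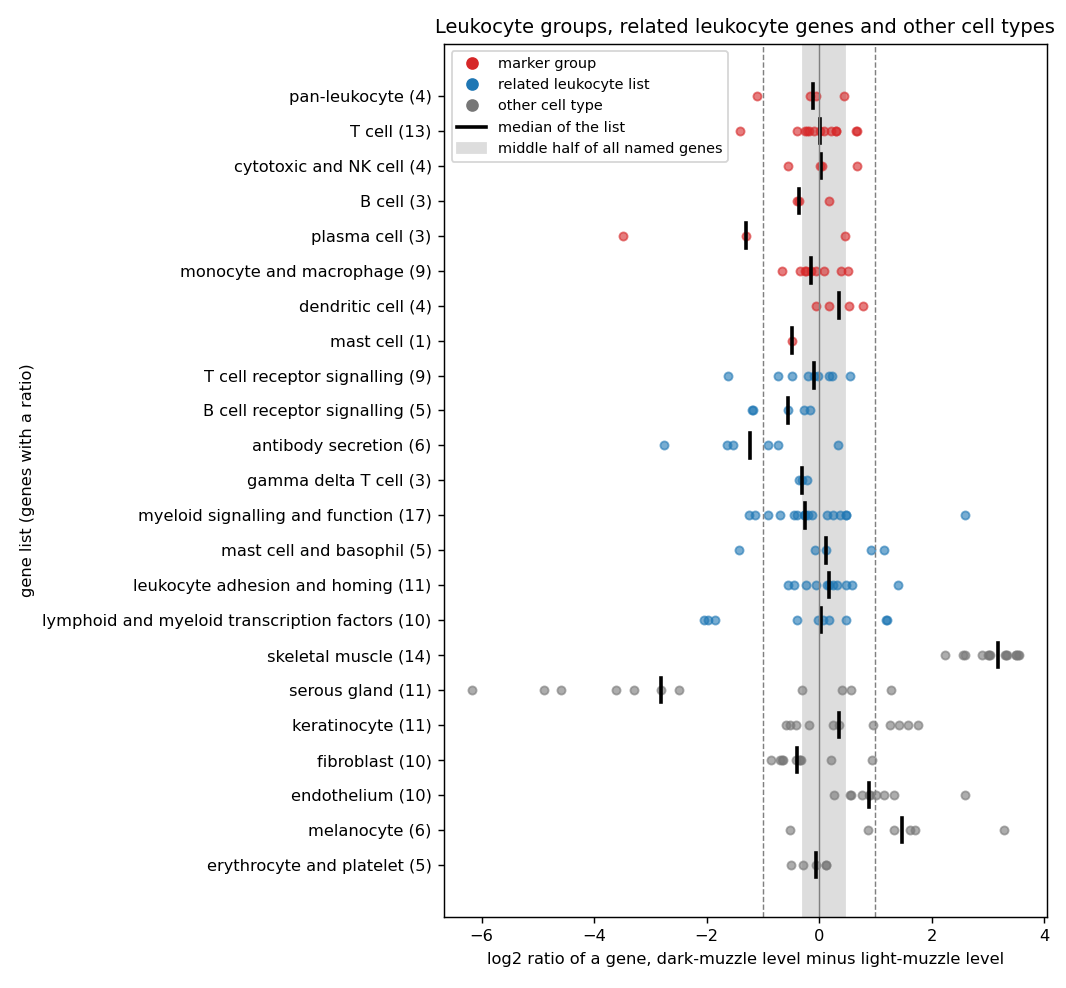
Log2 ratio of each gene (x axis, dark muzzle over light muzzle) in the 8 groups of leukocyte markers (red), related leukocyte lists (blue) and lists of other cell types (grey), with the number of genes with a ratio in brackets on the y axis. Black bars are list medians, the grey band spans the quartiles of all named genes (-0.29 to 0.46) and dashed lines mark 2-fold; the plasma cell median (-1.31) and the antibody secretion median (-1.22) lie left of the 2-fold line, the other 6 marker groups with several genes between -0.35 and 0.35.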

How the data were processed

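Total RNA of 1 light-muzzle and 1 dark-muzzle cow was hybridised to 1 Agilent bovine array each. The authors deposited the output of Agilent Feature Extraction 10.7.3.1, whose processed signal is a background-subtracted intensity. They also deposited a table of log2 values, which matched the levels computed here within 0.01 for 43627 of 43639 probes per array and was used as an alternative.

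Control spots and the 13 outlier spots that each file marks were removed, and repeated spots averaged per probe. Well above background were 78.8% and 81.9% of noncontrol spots, and no spot was saturated. Probes were named through RefSeq accessions (20587 probes). Members were split into 8 lineage groups. Levels or intensities are given for members at least 2-fold different, shared leukocyte markers and members with probes on different sides of 2-fold. Other members with levels were chosen after their values were seen. From related lists, up to 3 genes at least 2-fold different were to be named; others, and PIGR from the gland list, were chosen after their values were seen. Members and lists were chosen with earlier results of these data known. Some genes of the related lists are counted but not reported here by name. With 1 array per group, no test was made. Counting was tested on simulated data, made from the light-muzzle array with added noise. Only genes well above background were changed there, by 4-fold, so the handling of dim probes and lower bounds was not tested.

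The alternatives were quantile, loess (span 0.3) and 50th percentile scaling, normexp on the median pixel signal (offset 50), 3 treatments of dim probes, outlier spots kept, the deposited table, other summaries of probes and thresholds of 1.5-fold and 3-fold. Python 3.11.15, pandas 2.3.3, R 4.3.3 and limma 3.58.1 were used.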

Additional observations from a re-analysis of the deposited data

How the results depend on the processing

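Of 125 counts and medians recomputed under the alternatives, 116 stayed within 1.5 times the count or within the SD between probes of a gene (0.17). Members at least 2-fold higher numbered 0 as reported, 2 without a filter on dim probes (CD3G and CTLA4), 1 with the brightest probe of a gene (CD86) and 4 at 1.5-fold. Members at least 2-fold lower numbered 4 as reported, 2 under normexp background correction (POU2AF1 and MZB1) and 1 at 3-fold (POU2AF1). The T cell median was 0.21 without a filter, the B cell median 0.22 without a filter and 0.17 with levels raised to the detection limit, and the cytotoxic and NK cell median 0.26 with levels raised to the detection limit. Of 450 values of single genes, 59 moved by more than that SD. A sign different from the reported one was taken by 10 genes, the largest of which had a reported size of 0.39, and no gene past 2-fold reversed. POU2AF1 lay between -3.56 and -2.31 and MZB1 between -1.33 and -1.22 in all alternatives. Using only names printed in the scanner files was not run, since these hold accessions without symbols. No paired analysis was possible because each group has 1 array, and for the same reason no replicate could be left out. Signal over background limits the dim members: 24 of 84 probes were not well above background on at least 1 array.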

Other observations

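Genes of leukocyte adhesion and homing, measured for 11 genes, had a median log2 ratio of 0.17. By at least 2-fold, 1 gene was higher and 0 were lower with the dark muzzle, against 9.86% and 6.47% of named genes. The higher gene was ICAM3, an adhesion molecule, with levels of -0.39 (light muzzle) and 1.01 (dark muzzle) and a ratio of 1.40. The integrin chain ITGAL had a ratio of -0.24, but a second ITGAL probe, above background with the dark muzzle alone, had a bound of 1.45. The probes of ITGB7, an integrin chain of gut-homing lymphocytes, ranged from -1.35 to 0.69.

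Among transcription factors used by lymphoid and myeloid cells, 10 had a ratio or bound, with a median of 0.028. Of the 10, 2 were higher and 3 lower by at least 2-fold with the dark muzzle, against 9.86% and 6.47% of named genes. ID2, an inhibitor of basic helix-loop-helix factors that many tissues make, had probes at -2.33 and -1.76 and a mean ratio of -2.04. IKZF3, a zinc finger factor of B-lineage and T cells, had levels of -2.25 and -4.10 and a ratio of -1.85. In contrast, GATA3, a factor of T cells and epithelium, had probes at 0.63 and 1.77, and FOXP3, the factor of regulatory T cells, was above background with the dark muzzle alone, with a bound of 1.19. Genes of red cells and platelets, which would mark blood in the tissue, had a median of -0.050 over 5 measured genes, between -0.51 and 0.13. The only bright gene among them was HBA, with levels of 4.15 and 3.64 and a ratio of -0.51. HBB (-4.66 and -4.71), SLC4A1 (-5.40 and -5.27) and PF4 (-5.40 and -5.28) were dim, so the median says little about blood content.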
